A study of Rattus norvegicus with 18 samples.

Results

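The transcriptome of the detrusor, the smooth muscle wall of the urinary bladder, was compared between spinal cord–injured rats given inosine (SCI-inosine) and uninjured rats (Control). The comparison used 6 of 18 RNA-Seq libraries, the 3 detrusor libraries of each group, chosen by their labels. All rats were male wild-type Sprague Dawley rats, aged 6 to 7 weeks at surgery. SCI-inosine rats had a complete transection of the spinal cord at T8 and then intraperitoneal inosine at 225 mg/kg/d for 8 weeks. Control rats had neither injury nor treatment, so injury, injection and inosine cannot be told apart in this comparison. The remaining group, SCI-vehicle, had the same injury and 12 mM sodium bicarbonate at pH 9.2 over the same period, and the mucosa, the inner lining dissected from the bladders, was sequenced in all 3 groups. The labels give all libraries the same batch, and the study describes the 3 samples of a group as biological replicates.

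The detrusor stores urine while relaxed and empties the bladder when parasympathetic nerves make it contract. After a cord transection above the sacral segments, voluntary control of voiding is lost, bladder reflexes return in an uncoordinated form, and the muscle wall thickens and becomes fibrotic. Inosine is a purine nucleoside that cells form from adenosine by deamination and degrade to hypoxanthine. It is known for effects on axon growth and on inflammation. The question addressed here was how far detrusor RNA of injured, inosine-treated rats stood from that of uninjured rats.

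The counts are listed by Ensembl rat gene identifier with no symbol, and the sources used here do not pair them. For this reason no gene is named by function, the tissue labels could not be checked against marker genes, and 2 identifiers are given in each direction. The groups of genes below are defined by level, by tissue and by change. Total counts ranged from 4101639 to 6810496 over the 6 libraries, and 15740 of 32754 listed genes passed a level of 1 CPM (counts per 1000000 counts of a library) in at least 3 libraries of the series.

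A pair of libraries stood apart. SCI-inosine library 2 had counts for 14126 genes, against 16475 to 17842 in the other 8 detrusor libraries, and 338 genes with exactly 1 count, against 1423 to 1727. In that library 716 genes that averaged at least 5 counts in the other detrusor libraries were at 0, against 16 to 112 such genes in the others. SCI-vehicle library 1 had the highest estimated mucosa share, 25.7%, and the values for all libraries are given with the tissue-enriched genes. The number of genes called without these and other libraries is given last.

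In detrusor, 46 genes differed between SCI-inosine and Control at an adjusted p under 0.05 (edgeR quasi-likelihood F test, Benjamini-Hochberg adjustment over all tested genes). Of these, 30 genes rose (0.191% of tested genes) and 16 genes fell (0.102%). Rises ranged from 0.876 to 4.52 on the log2 scale, with a median of 1.70, and 28 of the 30 were beyond 2-fold and 9 beyond 4-fold. Falls were smaller, with a median of -1.03 and a range from -7.95 to -0.843, and 8 of the 16 were beyond 2-fold and 2 beyond 4-fold. The median log2 fold change over all tested genes was -0.006. The smallest adjusted p in each direction was 0.0226, so the genes called lie close to the threshold, and 35 further genes had an adjusted p from 0.05 to 0.1.

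**Figure D1:**
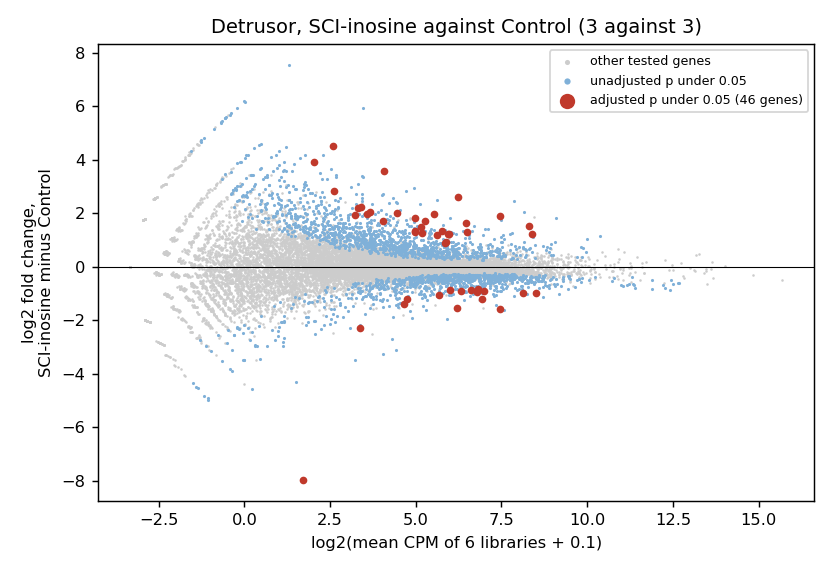
Each point is a tested gene in detrusor, with its mean level in the 3 Control and 3 SCI-inosine libraries on the x axis, as log2(CPM + 0.1), and its log2 fold change, SCI-inosine minus Control, on the y axis. Red points are the 46 genes called at an adjusted p under 0.05, and blue points are other genes at an unadjusted p under 0.05. The lowest red point is the gene at 0 counts in all 3 SCI-inosine libraries.

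The genes that rose were of moderate level in Control detrusor and the genes that fell were abundant there. The Control libraries also chose the genes, so part of this difference follows from the choice. The 30 genes that rose had a median Control level of 18.3 CPM, ranging from 0.443 to 200 CPM, and a median of 51.4 CPM in SCI-inosine. Of them, 11 were under 10 CPM in Control and 4 over 50 CPM. The 16 genes that fell had a median Control level of 119 CPM, ranging from 6.28 to 483 CPM, and a median of 62.7 CPM in SCI-inosine. Among these, 12 were over 50 CPM in Control and 1 under 10 CPM. The median Control level of all tested genes was 16.2 CPM. The depth behind the Control values differed accordingly, from 6 to 2506 counts summed over the 3 libraries for the genes that rose, with 3 genes under 20 counts, and from 82 to 6111 counts for the genes that fell.

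All 46 genes had SCI-inosine and Control libraries that did not overlap in CPM, which held for 2931 of all tested genes (18.6%). For the genes that rose, the lowest SCI-inosine library was 1.38 to 11.0 times the highest Control library, with a median of 2.02 times. For 15 of the genes that fell, the lowest Control library was 1.40 to 3.47 times the highest SCI-inosine library, with a median of 1.56 times, and the remaining gene was at 0 in SCI-inosine. The median coefficient of variation over genes that rose was 18.4% in Control and 23.7% in SCI-inosine, and over genes that fell it was 13.3% and 14.7%. SCI-inosine library 2, the library with few detected genes, held the highest SCI-inosine value for 17 of the 30 genes that rose and the lowest for 12 of the 15 genes that fell and were not at 0.

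The largest rise among the 46 genes called was that of ENSRNOG00000011181, with larger values for 26 genes that were not called. Its detrusor level was 0.242, 0.794 and 0.292 CPM in Control and 15.2, 9.93 and 8.72 CPM in SCI-inosine. The lowest SCI-inosine library was thus far above every Control library, although the Control values rest on 1, 4 and 1 counts. The means were 0.443 ± 0.305 CPM (SD, n = 3) and 11.3 ± 3.43 CPM (SD, n = 3), and the log2 fold change was 4.52 ± 0.64 (SE), with a 95% confidence interval from 3.11 to 5.93 and an adjusted p of 0.0332 (edgeR). From summed counts the ratio was 23.9, with an exact 95% interval from 10.8 to 65.9 that covers counting error only.

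In SCI-vehicle detrusor the same gene had 1.28, 5.26 and 2.99 CPM. These libraries lay above all Control libraries and below all SCI-inosine libraries. The SCI-inosine to SCI-vehicle ratio was 3.52 (counting interval 2.56 to 4.93), and the difference had an unadjusted p of 0.00428 and an adjusted p of 0.952 (edgeR). In mucosa ENSRNOG00000011181 was low in every group, with 0.565, 1.04 and 1.10 CPM in Control and 1.62, 2.55 and 1.05 CPM in SCI-inosine, which overlap. The difference between tissues in its log2 fold change was 3.62, with an unadjusted p of 0.000934 and an adjusted p of 0.271 (edgeR interaction term).

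ENSRNOG00000020563 had the next largest rise among the genes called and a similar profile in detrusor. Control libraries had 0.242, 0.596 and 0.585 CPM, from 1, 3 and 2 counts, and SCI-inosine libraries had 9.63, 6.06 and 7.02 CPM. Its log2 fold change was 3.92 ± 0.63 (SE), with a 95% confidence interval from 2.55 to 5.30 and an adjusted p of 0.0389 (edgeR), and the ratio of summed counts was 15.9 (counting interval 7.09 to 44.1). SCI-vehicle libraries again lay between the groups, at 1.28, 4.87 and 2.99 CPM. The gene was near the limit of detection in mucosa, with 0, 3 and 0 counts in Control and 8, 3 and 3 counts in SCI-inosine. Its log2 fold change there was 2.49, with an unadjusted p of 0.0382 and an adjusted p of 0.971 (edgeR). The difference between tissues in its log2 fold change was 1.405, with an unadjusted p of 0.374 and an adjusted p of 0.757 (edgeR interaction term).

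ENSRNOG00000042889 fell in SCI-inosine detrusor and stood at a similar level in SCI-vehicle. Control libraries held 19.2, 18.3 and 13.5 CPM and SCI-inosine libraries 3.03, 3.87 and 3.40 CPM. SCI-vehicle libraries held 3.85, 4.09 and 6.36 CPM. The Control libraries were all above the libraries of both injured groups, and the injured groups overlapped. The log2 fold change against Control was -2.29 ± 0.31 (SE), with a 95% confidence interval from -2.98 to -1.60 and an adjusted p of 0.0294 (edgeR). The SCI-vehicle log2 fold change against Control was -1.81 (adjusted p = 0.0558, edgeR), and SCI-inosine minus SCI-vehicle was -0.48 (adjusted p = 0.952, edgeR). In mucosa the SCI-inosine to Control ratio of summed counts was 0.575, with a counting interval from 0.328 to 0.977 that leaves out the spread between libraries. The test between libraries in mucosa gave an unadjusted p of 0.124 and an adjusted p of 0.998 (edgeR).

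ENSRNOG00000006365 was the 1 gene called whose SCI-vehicle mean did not lie on the same side of Control as its SCI-inosine mean. It had 18, 45 and 19 counts in the Control detrusor libraries, 35, 30 and 35 counts in the SCI-vehicle libraries and 0 counts in all 3 SCI-inosine libraries. The Control level was 4.36, 8.93 and 5.56 CPM and the SCI-vehicle level was 7.48, 5.85 and 6.54 CPM, so these groups overlapped while SCI-inosine was at 0. With a floor of 3 counts over the group, or 0.185 CPM, SCI-inosine was at least 35.3-fold lower than Control and at least 35.7-fold lower than SCI-vehicle. The floor counts SCI-inosine library 2 in full, although 716 genes detected in the other detrusor libraries were at 0 in it. Its 0 therefore carries less weight than those of SCI-inosine libraries 1 and 3. Its adjusted p was 0.0226 against Control and 0.0589 against SCI-vehicle (edgeR), the smallest of all genes in the latter comparison. SCI-vehicle minus Control was 0.09 on the log2 scale.

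The same gene was nearly undetected in the mucosa of inosine-treated rats. Mucosa counts of ENSRNOG00000006365 were 38, 62 and 28 in Control, 61, 43 and 57 in SCI-vehicle and 0, 1 and 1 in SCI-inosine. The ratio of SCI-inosine to Control was 0.0210 in mucosa, with a counting interval from 0.00251 to 0.0773. The adjusted p in mucosa was 0.0616 against Control and 0.0203 against SCI-vehicle (edgeR), and in the latter comparison it was the 1 gene called among 870 at an unadjusted p under 0.05. It was 1 of 2 genes in the series that were under 0.5 CPM in both tissues of some group-and-number pairs and over 2.5 CPM in both tissues of all other pairs, with 3 pairs low and 6 high. All 3 low pairs were SCI-inosine. The other such gene was high in 1 Control and 1 SCI-vehicle pair and in no SCI-inosine pair, a split that did not follow the groups.

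**Figure D2:**
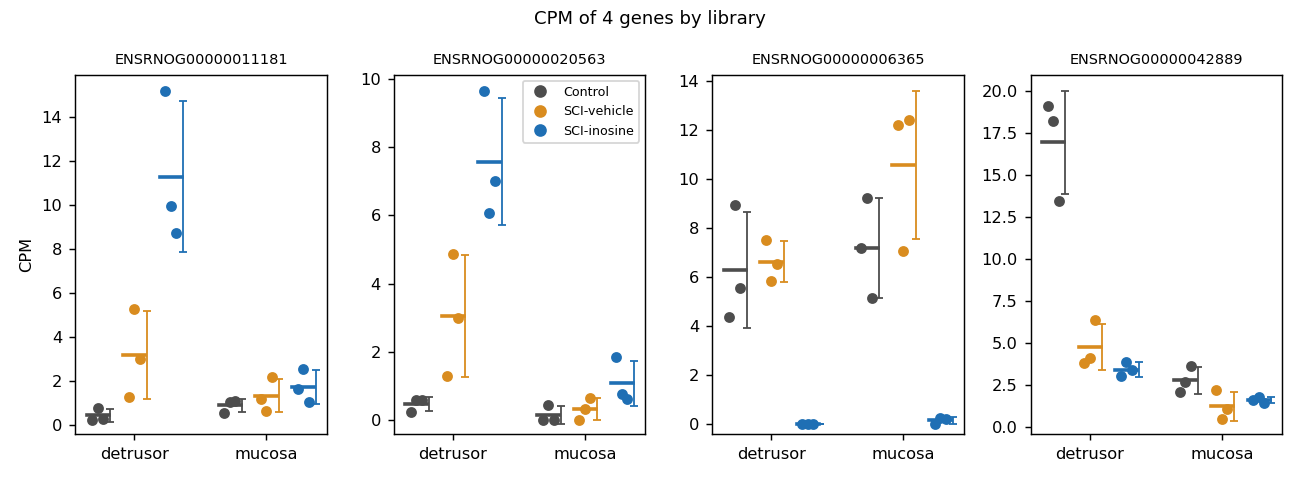
CPM of the 4 genes in each of the 18 libraries, by tissue and group. Points are libraries, horizontal bars are means and vertical bars are ± SD (n = 3). ENSRNOG00000006365 is at or near 0 in SCI-inosine libraries of both tissues, and ENSRNOG00000042889 is low in both injured groups.

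The SCI-vehicle libraries show where the 46 genes stood after injury with no inosine. This comparison shares the Control libraries with the one that chose the genes, so the values are given side by side. All 30 genes that rose in SCI-inosine had SCI-vehicle means above Control, with a median log2 fold change of 1.19, against 1.70 in SCI-inosine, and a range from 0.484 to 2.72. At an unadjusted p under 0.05, 28 of the 30 were higher in SCI-vehicle (background 7.55% of tested genes) and 6 were called at an adjusted p under 0.05 (background 0.0762% in either direction, 12 genes). For 26 of the 30, all 3 SCI-vehicle libraries were above the same 3 Control libraries that had chosen the genes (background 9.08%). The SCI-vehicle mean lay between the Control and SCI-inosine means for 25 genes and above the SCI-inosine mean for 5.

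Of the 16 genes that fell, 15 were also lower in SCI-vehicle at an unadjusted p under 0.05 (background 5.42%), and 3 were called. The median log2 fold change of the 16 was -0.977 in SCI-vehicle, against -1.03 in SCI-inosine. The SCI-vehicle mean was between the other groups for 10 genes, below the SCI-inosine mean for 5 and above the Control mean for 1, ENSRNOG00000006365. Median levels of the genes that fell were 119 CPM in Control, 60.9 CPM in SCI-vehicle and 62.7 CPM in SCI-inosine, so the injured groups stood together. Those of the genes that rose were 18.3, 36.0 and 51.4 CPM.

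Set against SCI-vehicle, SCI-inosine detrusor had 0 genes called by edgeR, with 689 at an unadjusted p under 0.05, and 10 genes by DESeq2. Both groups were injured and injected, and the SCI-inosine libraries are those that chose the 46 genes. Of the 30 genes that rose against Control, 17 were higher again in SCI-inosine than in SCI-vehicle at an unadjusted p under 0.05 (background 2.67%) and 1 was lower (background 1.71%). The median difference of the 30 was 0.604 on the log2 scale, and the smallest adjusted p among them was 0.952 (edgeR), so none passed the correction. In 14 of the 30, which were chosen for high SCI-inosine values, all SCI-inosine libraries were above all SCI-vehicle libraries (background 4.92%). Of the 16 genes that fell, 2 were lower again at an unadjusted p under 0.05, and the median difference was -0.121.

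**Figure D3:**
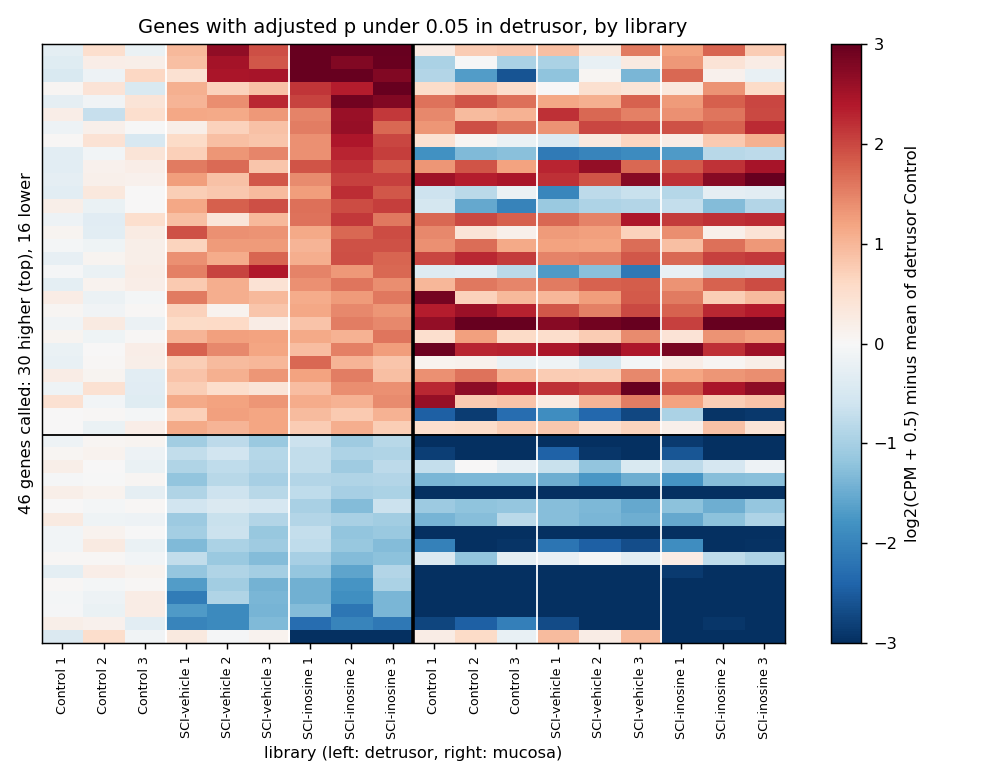
The 46 genes called in detrusor, 1 per line, in order of log2 fold change, in all 18 libraries. Colour is log2(CPM + 0.5) minus the mean of the 3 detrusor Control libraries, cut at 3 in either direction. Detrusor SCI-vehicle libraries share the colour of SCI-inosine for most genes, the bottom line excepted, and the mucosa libraries show the level of the same genes in the other tissue.

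In mucosa the values of the 46 genes were mixed in sign. The comparison of SCI-inosine with Control in mucosa called 0 genes by edgeR, with 371 genes higher (2.36%) and 416 lower (2.64%) at an unadjusted p under 0.05. It was not run with DESeq2. Of the 30 genes that rose in detrusor, 17 had a positive log2 fold change in mucosa, 3 of them at an unadjusted p under 0.05, and the median was 0.167. Of the 16 genes that fell, 6 had a negative value in mucosa and 1, ENSRNOG00000006365, was at an unadjusted p under 0.05, with a median of 0.189. The detrusor and mucosa comparisons have no library in common.

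The test of the difference between tissues, an interaction term over all 18 libraries, called 0 genes by edgeR, with 1632 at an unadjusted p under 0.05 (10.4%) and a smallest adjusted p of 0.12. DESeq2 called 70. Bladders were dissected into both tissues, but the labels do not say which libraries share a rat, and 7 of 9 detrusor libraries correlated best with the mucosa library of their own number, although the correlations of same-numbered libraries were low (0.00559 to 0.233). With the replicate number as a block edgeR called 4 genes, and with group and number together as a block, chosen after seeing the data, it called 5. Among the 30 genes that rose in detrusor, 27 had a larger change in detrusor than in mucosa at an unadjusted p under 0.05, and among the 16 that fell, 12 had. This term contains the detrusor difference that chose the genes, so these counts are a description. None of the 46 passed the correction, with smallest adjusted p-values of 0.12 and 0.239 in the 2 directions (edgeR).

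Many more genes passed an unadjusted threshold. At an unadjusted p under 0.05, 1224 genes were higher in SCI-inosine detrusor (7.78%) and 921 lower (5.85%), with median log2 fold changes of 1.04 and -0.554, and 638 and 182 of them were beyond 2-fold. Of the 2145 genes, 1594 were also beyond 0.5 on the log2 scale. Level was here the mean CPM of the 9 detrusor libraries, the injured groups included, and not the Control level. The share of genes at this threshold grew with level, from 4.24% under 1 CPM to 10.3%, 13.9%, 15.5% and 22.1% in the bands 1 to 5, 5 to 20, 20 to 100 and over 100 CPM. The 95% confidence interval reached a median of 2.84 either side of the log2 fold change in the lowest band and 0.342 in the highest. Rises led among low genes, with 226 higher and 55 lower from 1 to 5 CPM, and falls among abundant ones, with 133 higher and 313 lower over 100 CPM. In mucosa, 630 of the 1224 genes had the same sign (51.5%, against 50.5% of all tested genes with a positive value), and 481 of the 921 did (52.2%, against 49.5% with a negative one).

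With classes from the SCI-vehicle libraries, genes enriched in the mucosa had a positive median change in SCI-inosine detrusor. Genes enriched in the detrusor had a small negative one with calls in both directions. Enriched means over 4-fold apart between the tissues in the SCI-vehicle libraries. These belong to neither compared group but share the injury with SCI-inosine, so the classes are not independent of injury. Of 924 mucosa-enriched genes, 169 were higher at an unadjusted p under 0.05 (18.3%) and 4 lower, and the median log2 fold change of the class was 0.895. In SCI-vehicle the median was 1.24, with 271 higher and 7 lower, and the libraries that defined the class are the same. By library the SCI-vehicle medians were 1.77, 0.126 and 0.039, so the group value rests mainly on library 1. That library had an estimated mucosa share of 25.7% and also helped define the classes. Of 616 detrusor-enriched genes, 138 were lower (22.4%) and 58 higher (9.42%), with a median of -0.231, and 36.0% had a positive value. At an adjusted p under 0.05, 7 of them rose and 8 fell. In SCI-vehicle their median was -0.166, with 82 higher and 125 lower, and the medians by library were -0.369, 0.009 and -0.078. The other 14200 genes had a median of -0.021. Classes were also taken from the Control libraries, chosen after seeing the data. Of 666 detrusor-enriched genes, 17 were then higher by the same unadjusted threshold (2.55%) and 206 lower (30.9%), with a median of -0.441. Of 1180 mucosa-enriched genes, 303 were higher (25.7%) and 1 lower, with a median of 0.951. These classes rest on Control libraries that are in the comparison, so part of this change is built in. In bulk tissue, fewer cells of a type and less RNA per cell cannot be told apart.

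The mucosa share of each detrusor library was estimated as the median position of mucosa-enriched genes between the levels of Control detrusor and Control mucosa. It was -1.52, -0.00555 and 1.15% in Control, 3.94, 10.2 and 8.56% in SCI-inosine and 25.7, 2.33 and 1.57% in SCI-vehicle. All SCI-inosine libraries were above all Control libraries, and SCI-vehicle library 1 was above every other. The Control libraries also chose the set for low levels in Control detrusor. Their low shares, and the rank of other libraries above them, are therefore partly built in. A rise of the same genes within the detrusor would also raise the share, and it was not told apart from mucosa tissue. The median log2 difference of mucosa-enriched genes from Control was 0.463, 0.611 and 0.759 in the SCI-inosine libraries, with -0.221, 0.028 and 0.141 for each Control library against the other Control libraries and 1.77, 0.126 and 0.039 in SCI-vehicle. For detrusor-enriched genes it was -0.061, -0.356 and -0.283, with 0.06, -0.056 and -0.055 in Control, and SCI-inosine library 1 was close to the lowest Control library.

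**Figure D4:**
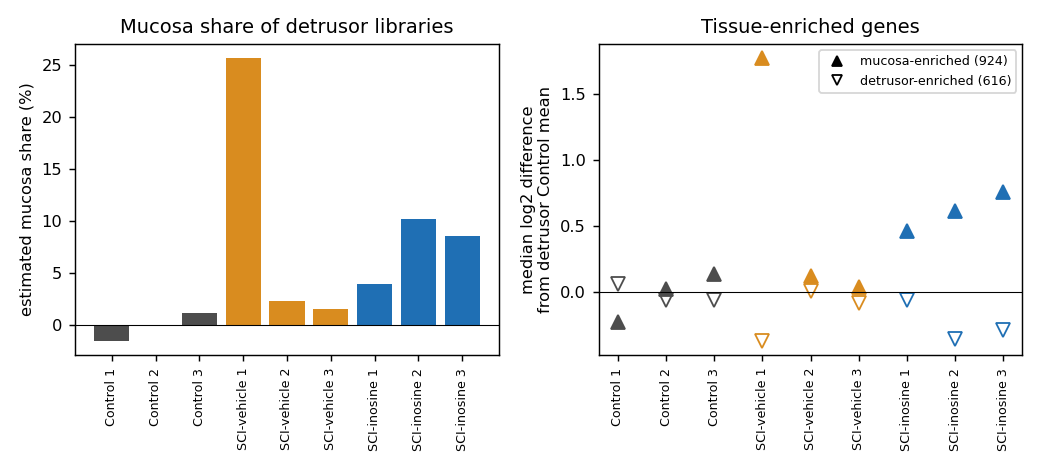
Left, estimated mucosa share (%) of each detrusor library, from genes chosen with the Control libraries. Right, median log2 difference from the mean of the Control detrusor libraries, over 924 mucosa-enriched genes (filled triangles) and 616 detrusor-enriched genes (open triangles), with each Control library set against the other 2. SCI-vehicle library 1 and the 3 SCI-inosine libraries lie above all Control libraries for mucosa-enriched genes.

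The tissue classes took in some of the 46 genes. Of the 30 genes that rose, 1 was mucosa-enriched, 7 were detrusor-enriched and 22 neither. With classes from the Control libraries, chosen after seeing the data, 6 were mucosa-enriched, 1 detrusor-enriched and 23 neither, with median log2 fold changes of 1.32, 0.937 and 1.91. Of the 16 genes that fell, 8 were detrusor-enriched, or 10 with classes from the Control libraries, and none was mucosa-enriched under either definition. The median level of the genes that fell was 119 CPM in Control detrusor and 10.1 CPM in Control mucosa. With the mucosa share as a covariate, 10 genes were called, 9 higher and 1 lower, all among the 46, and the median of mucosa-enriched genes was 0.245. The share itself was built with the Control libraries compared, and as a covariate it may also take out change within the detrusor.

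The number of genes called depended on single libraries. It was 0 by edgeR without Control library 1, Control library 2, SCI-inosine library 2 or SCI-inosine library 3, with 708, 783, 846 and 977 genes higher and 501, 554, 560 and 722 lower at an unadjusted p under 0.05. It was 100 without SCI-inosine library 1, of which 44 were among the 46, 14 without SCI-vehicle library 2, 24 without SCI-vehicle library 3, 34 without Control library 3 and 56 without SCI-vehicle library 1. Without SCI-inosine library 2 and SCI-vehicle library 1 together, a choice made after seeing the data, 14 genes were called, 13 of them among the 46. DESeq2 called 349 genes, 214 higher and 135 lower, and these included all 46.

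**Figure D5:**
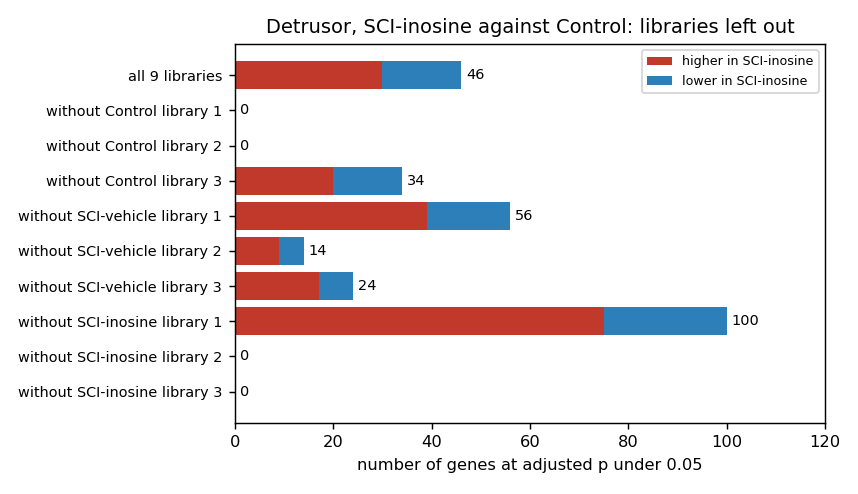
Number of genes at an adjusted p under 0.05 in detrusor, SCI-inosine against Control (edgeR), with all 9 detrusor libraries and with each left out in turn. Red is higher and blue lower in SCI-inosine. The number runs from 0 to 100.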

How the data were processed

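Total RNA of microdissected rat bladder was depleted of ribosomal RNA and made into stranded libraries for paired-end sequencing, each run on 2 flow cells. The authors deposited raw read counts per gene, added over the flow cells. The submitters' processing notes list FastQC 0.11.9, Trim Galore 0.6.10, STAR 2.7.10a, SAMtools 1.17, featureCounts 2.0.3, MultiQC 1.13 and the build Rnor_6.0. The annotation release and the strand setting of counting are not given in the sources used here, so reads of overlapping, antisense or near-identical genes may be split or merged.

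Columns were mapped to samples by their labels. Genes over 1 CPM in at least 3 of 18 libraries were kept. Counts were normalized by TMM and tested with edgeR 4.0.16 (R 4.3.3, quasi-likelihood F test) in 1 fit of the 9 detrusor libraries, with Benjamini-Hochberg adjustment and a threshold of 0.05. The biological coefficient of variation was 26.5%, and the 95% confidence interval reached a median of 0.622 either side of the log2 fold change. The SE was derived as the absolute log2 fold change divided by the square root of F. The intervals built from it are symmetric and only approximate for genes with few counts. The interaction was fitted over 18 libraries. CPM values use TMM factors over 18 libraries. Classes use log2 CPM with a prior count of 2, and the mucosa share uses genes over 4-fold higher and over 50 CPM in Control mucosa. Ratios of summed counts have exact intervals that cover counting error only. Scripts were tested on simulated data. DESeq2 1.42.0, other filters and size factors, a replicate block and each library left out were alternatives. Correlations between detrusor libraries ran from 0.904 to 0.977, and no library was a duplicate.

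The genes to be named were those called that have a symbol, with gene lists by symbol. As 0 identifiers could be matched, the lists were not used, and the 2 largest rises and 2 largest falls are given by identifier. The comparison, lists and groups of genes were chosen with earlier results of these data known.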

Additional observations from a re-analysis of the deposited data

Results flagged for a closer look

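The median change of detrusor-enriched genes had opposite signs in the 2 tissues, with the same sign in every SCI-inosine library of a tissue. The median log2 fold change, SCI-inosine against Control, was -0.231 in detrusor and 0.336 in mucosa. The medians of the 3 SCI-inosine libraries were -0.061, -0.356 and -0.283 in detrusor and 0.742, 0.007 and 0.274 in mucosa, while Control mucosa libraries, each against the other 2, ran from -0.482 to 0.715. In mucosa 41 of the 616 genes were higher and 17 lower at an unadjusted p under 0.05. The difference between the tissues was not tested.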

How the results depend on the processing

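For SCI-inosine against Control in detrusor, 46 genes became 349 with DESeq2, 169 with no filter on low counts, 11 with only the groups compared and 10 with the mucosa share as a covariate. Unadjusted p under 0.05 with a log2 fold change beyond 0.5 gave 1594 and leaving out 2 libraries together gave 14. Leaving out 1 library gave 0 to 100. DESeq2 size factors, edgeR's own filter and leaving out mucosa-enriched genes gave 44, 41 and 43. The cause of these differences was not tested. Correlations of same-numbered Control and SCI-inosine libraries ran from -0.0585 to 0.236, with 1 of 3 best with its own number. With 3 pairs these values cannot show whether such libraries deviated together. A replicate block gave 75 genes, 35 of them among the 46, and 4 for the difference between tissues. Against SCI-vehicle, 0 genes became 10 with DESeq2, 2 with no filter and 1 without the genes higher in Control mucosa, and leaving out 1 library gave 0. For the difference between tissues, 0 became 70 with DESeq2, 4 with no filter and 5 with group and replicate number together as a block, chosen after seeing the data, and leaving out 1 library gave 0 to 3. The median of mucosa-enriched genes was 0.245 with the covariate and 0.74 to 0.972 with 1 library left out. That of detrusor-enriched genes was -0.441 with classes from the Control libraries and -0.338 to -0.16 with 1 library left out. The 4 named genes kept their direction under all 17 alternatives, with adjusted p-values (edgeR or DESeq2) up to 0.156, 0.181, 0.106 and 0.144 for ENSRNOG00000011181, ENSRNOG00000020563, ENSRNOG00000006365 and ENSRNOG00000042889, and as low as 4.66e-06, 0.00015, 2.39e-06 and 7.91e-07 with DESeq2. Differences smaller than the confidence interval, wide for genes under 5 CPM, were not detectable at this depth with 3 libraries per group. For genes over 100 CPM the interval still reached a median of 0.342 either side of the log2 fold change.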
